A study of Mus musculus with 12 samples.

Results

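The 10 genes described here encode the immediate-early transcription factors of the FOS, JUN and EGR families, the nuclear receptor NR4A1 and the factor ATF3. They were taken by symbol from a count table of 55487 genes, and all 10 (Fos, Fosb, Jun, Junb, Jund, Egr1, Egr2, Egr3, Nr4a1 and Atf3) were found and passed the filter on low counts, as did 18019 genes in all. Polyadenylated RNA had been sequenced from breast tumours of 12 C57BL/6J mice, each library a separate mouse. All 12 mice carried the MMTV-PyMT transgene, so that polyoma middle T antigen was expressed in mammary epithelium under a mouse mammary tumour virus promoter. In 6 of them Bad was wild type (PyMT-Bad+/+, here Bad_WT), and the other 6 carried Bad3SA (PyMT-Bad3SA), a form of the pro-apoptotic protein BAD whose regulatory serines cannot be phosphorylated. The mice were described as age matched, yet their ages at the end point ran from 21.3 to 27.1 weeks in Bad_WT and from 22.9 to 31.1 weeks in Bad3SA.

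Immediate-early genes are transcribed within minutes of a growth factor, stress or mechanical stimulus, without new protein synthesis. Kinases of the ERK, JNK and p38 cascades activate serum response factor with its ELK partners and CREB at their promoters, and the transcripts are then degraded quickly. FOS and JUN proteins pair to form AP-1, the EGR proteins are zinc-finger activators, NR4A1 is an orphan nuclear receptor, and ATF3 is a stress-induced factor that pairs with JUN proteins. In mammary tumours, receptor tyrosine kinases and middle T antigen itself signal through these cascades. Heat and tissue handling can induce the same genes.

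The sequence just upstream of the start site is shown for 5 of the genes because it holds letters that match sites of the factors named above. Whether these letters act in the tumours was not tested. The data below describe how closely the transcripts moved together. The set of RefSeq promoter windows used here, on GRCm38.p6 and from 250 bases before to 50 bases after the start, covered 8 of the 10 genes. It held no window for Egr1 and Egr3. Each line gives the stretch directly before the start, on the gene's own strand, 5′ to 3′. Capitals mark TGACG, the core of the CREB and ATF site (CGTCA where it reads on the opposite strand), TGACATCA, the AP-1-like site of Jun, and the CArG box of serum response factor.
Fos, chr12:85473740-85473889, plus strand: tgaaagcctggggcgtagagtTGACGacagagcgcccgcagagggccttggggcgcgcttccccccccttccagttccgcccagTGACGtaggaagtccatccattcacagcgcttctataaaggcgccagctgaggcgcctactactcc
Jun, chr4:95052223-95052372, minus strand: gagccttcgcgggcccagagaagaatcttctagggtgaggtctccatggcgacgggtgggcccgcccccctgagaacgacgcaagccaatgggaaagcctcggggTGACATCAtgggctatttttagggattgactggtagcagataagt
Junb, chr8:84978749-84978898, minus strand: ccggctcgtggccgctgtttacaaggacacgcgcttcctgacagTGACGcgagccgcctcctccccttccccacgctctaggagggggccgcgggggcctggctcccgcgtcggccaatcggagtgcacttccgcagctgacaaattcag
Egr2, chr10:67537719-67537868, plus strand: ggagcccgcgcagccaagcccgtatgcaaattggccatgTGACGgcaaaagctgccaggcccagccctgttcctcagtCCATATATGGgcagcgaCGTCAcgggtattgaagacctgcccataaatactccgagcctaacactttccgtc
Nr4a1, chr15:101266596-101266845, plus strand: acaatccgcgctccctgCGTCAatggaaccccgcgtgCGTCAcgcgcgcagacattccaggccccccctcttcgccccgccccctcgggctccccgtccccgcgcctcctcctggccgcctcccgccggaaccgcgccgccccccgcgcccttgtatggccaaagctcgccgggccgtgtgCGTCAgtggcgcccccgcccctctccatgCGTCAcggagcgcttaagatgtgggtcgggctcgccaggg

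In the full 300-base windows, TGACG on either strand was found for 6 of the 8 genes (Fos, Fosb, Junb, Egr2, Nr4a1 and Atf3), against 23.0% of 27025 mouse genes with such windows, counting a gene once if any of its windows held the motif. The Fos window held it 129 and 66 bases before the start and a TATAAA box at 33 bases, whereas the Nr4a1 window held 4 copies, all on the opposite strand, 233, 213, 69 and 40 bases before the start. TATAAA was also found in the Junb window, not upstream but at bases 1 to 6 counted from the start. The Jun window held TGACATCA 45 bases before the start, a motif present for 4.18% of genes. A CArG box was found for Egr2 alone among the 8, where it lay 72 bases before the start printed above (1 of 5 starts listed for the gene), and for 1.81% of all genes. A different CArG box lay 72 bases before another of the listed Egr2 starts. None of the 8 held the palindromes TGACGTCA or TGANTCA, the EGR site GCGTGGGCG or the NR4A site AAAGGTCA. The Jund window held none of the motifs searched, and its RefSeq start lay upstream of the Jund gene as annotated in GENCODE. These matches describe letters in a window and not bound sites, and sequence more than 250 bases before a start was not searched.

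Per kilobase of exon, the JUN family was the most abundant and Fosb the least. Mean levels over the 12 tumours, in CPM (the count scaled to library size) per kilobase, were 61.0 for Junb, 59.4 for Jund, 52.0 for Jun, 29.1 for Egr1, 28.3 for Fos, 16.2 for Atf3, 13.8 for Nr4a1, 3.49 for Egr2, 2.37 for Egr3 and 0.867 for Fosb. Neighbours in this order differed by less than the larger of their SDs over tumours in every step but 1. The step from Nr4a1 to Egr2, of 10.3 CPM per kilobase, was the exception. In the GENCODE annotation, exons of Jun overlap the antisense gene Junos, exons of Junb overlap Prdx2 on the opposite strand, and exons of Jund overlap the antisense gene Gm11175. Whether counting used strand is not stated, so reads of these pairs could not be told apart.

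The feature that dominated the 10 genes was a difference among wild-type tumours. Bad_WT 5 and Bad_WT 6 held the 2 highest levels of 7 of the 10 genes: Fos, Fosb, Jun, Egr1, Egr2, Egr3 and Atf3. Over all genes tested, 10.7% had their 2 highest levels in these same tumours. The summed level of the 10 genes was 1352 CPM in Bad_WT 5 and 1229 CPM in Bad_WT 6, and between 481 and 732 CPM in the other 10 tumours, Bad3SA and Bad_WT alike. These tumours were singled out after their values were seen, so the fold change of each of the 10 genes is also given without them. Values of other genes and lists are for all 12 tumours unless stated. By genotype alone, none of the 10 genes passed the test over all genes (edgeR quasi-likelihood, adjusted p under 0.05), against 1.38% of all genes (0.76% lower and 0.622% higher in Bad3SA). At an unadjusted p under 0.05 there were 2, Egr1 and Nr4a1, against 16.2% of all genes. Fewer cells of a type and less RNA per cell cannot be told apart in such bulk tumour samples.

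**Figure D1:**
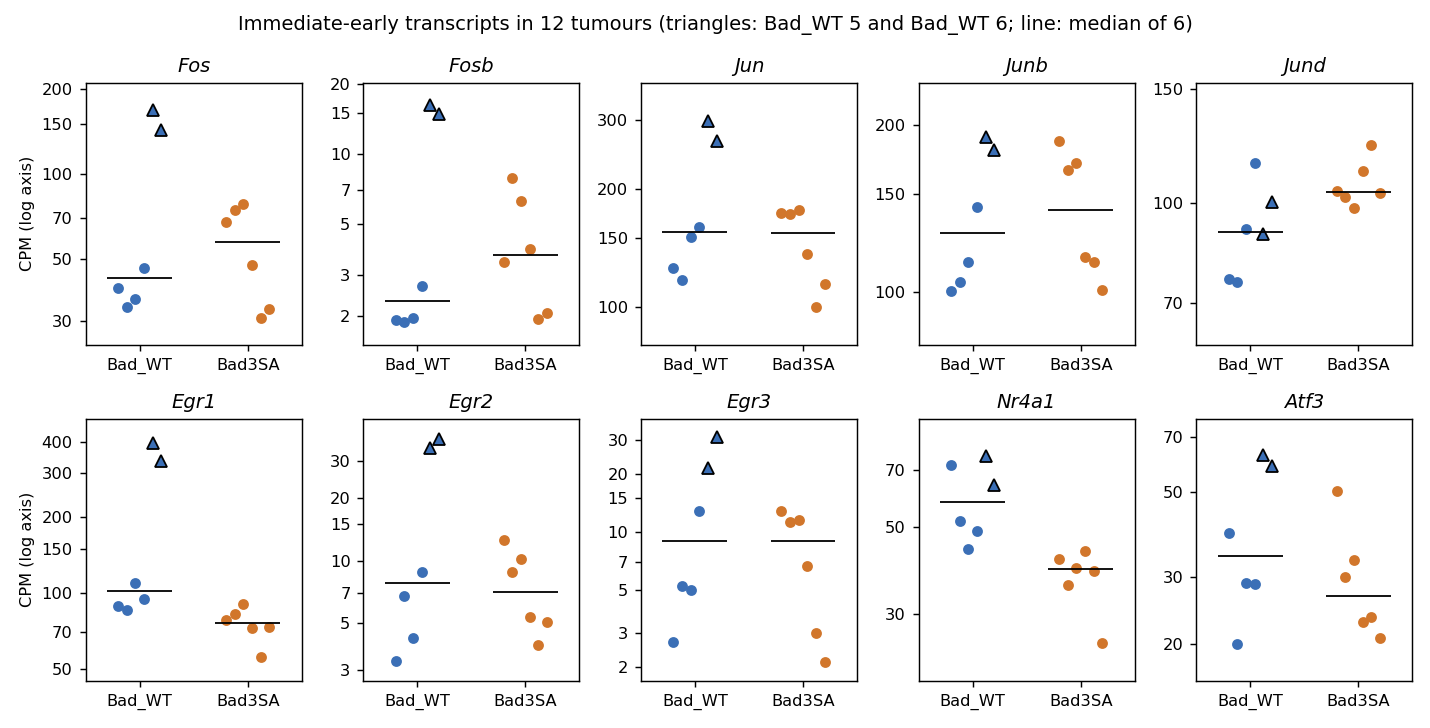
CPM of each of the 10 genes (log axis) in the 6 Bad_WT and 6 Bad3SA tumours, 1 symbol per tumour, with a line at the median of each genotype and triangles for Bad_WT 5 and Bad_WT 6. The triangles lie above every other tumour for Fos, Fosb, Jun, Egr1, Egr2, Egr3 and Atf3, while for Nr4a1 all 6 Bad3SA tumours lie below all 6 Bad_WT tumours.

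Fos (ENSMUSG00000021250, chromosome 12, 85473890 to 85477273), the prototype partner of JUN in AP-1, was measured at 39.5, 33.7, 36.0, 46.2, 168 and 143 CPM in Bad_WT tumours 1 to 6. In Bad3SA tumours 1 to 6 it was measured at 67.4, 74.4, 78.4, 47.4, 31.0 and 33.2 CPM. The groups overlapped, since the Bad3SA values lay within the range of the wild-type ones apart from the 2 lowest. The wild-type mean was 77.7 ± 60.9 CPM and the Bad3SA mean 55.3 ± 20.9 CPM (SD, n = 6 each), but the medians were in the opposite order, at 42.8 and 57.4 CPM. The log2 fold change, for Bad3SA against Bad_WT throughout, was -0.49 (SE 0.44, edgeR adjusted p = 0.585). Without Bad_WT 5 and Bad_WT 6 it was 0.51 (SE 0.28, edgeR adjusted p = 0.439), so the sign rested on them.

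Fosb (ENSMUSG00000003545, chromosome 7, 19302696 to 19310051), a FOS relative whose spliced form is known for persistence in neurons, followed the same pattern at a much lower level. It ranged from 1.88 to 2.69 CPM in Bad_WT 1 to 4, reached 16.2 and 14.8 CPM in Bad_WT 5 and 6, and ranged from 1.94 to 7.89 CPM in Bad3SA, with a median of 3.66. The fold change was -0.63 (SE 0.63, edgeR adjusted p = 0.625) with all tumours and 1.01 (SE 0.41, edgeR adjusted p = 0.312) without those 2. Neither value passed the test.

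Among the JUN genes, Jun alone had its 2 highest levels in Bad_WT 5 and 6. Jun (ENSMUSG00000052684, chromosome 4, 95049034 to 95052222), the founding AP-1 subunit, was at 126, 117, 151, 160, 298 and 264 CPM in Bad_WT 1 to 6. The Bad3SA tumours ranged from 100.0 CPM in Bad3SA 5 to 177 CPM in Bad3SA 3, and their median of 154 CPM was close to the 155 CPM of Bad_WT. The fold change of Jun was -0.35 (SE 0.25, edgeR adjusted p = 0.479), and 0.07 without Bad_WT 5 and 6.

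Junb (ENSMUSG00000052837, chromosome 8, 84974484 to 84978718), an AP-1 subunit that can oppose JUN, had nearly equal group means, 138 ± 39.3 CPM for wild-type tumours and 142 ± 36.4 CPM for Bad3SA (SD, n = 6 each). Its fold change was 0.04 (SE 0.21, edgeR adjusted p = 0.935). It was 0.30 (SE 0.20, edgeR adjusted p = 0.510) without Bad_WT 5 and 6. Bad3SA 1, 2 and 3, at 187, 166 and 171 CPM, lay near the 190 and 180 CPM of Bad_WT 5 and 6. Bad3SA 4, 5 and 6 lay lower, at 116, 113 and 101 CPM, among the other wild-type tumours.

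Jund (ENSMUSG00000071076, chromosome 8, 70698949 to 70700616), the JUN gene known for steady expression in resting cells, varied least of the 10. It ranged from 75.3 to 115 CPM in Bad_WT, with a median of 90.1, and from 98.3 to 123 CPM in Bad3SA, with a median of 104. The fold change was 0.23 (SE 0.11, edgeR adjusted p = 0.331), and it stayed positive in all 21 alternative fits, from 0.18 to 0.31, with 0.25 (SE 0.14) without Bad_WT 5 and 6. Jund's share of the summed JUN family, taken per kilobase, was 23.3% and 27.1% in Bad_WT 5 and 6, and 35.5% to 38.2% in the other wild-type tumours. In Bad3SA it split by tumour, from 31.2% to 32.6% in Bad3SA 1 to 3 and from 41.9% to 47.7% in Bad3SA 4 to 6.

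Egr1 (ENSMUSG00000038418, chromosome 18, 34859823 to 34864984), the zinc-finger factor most directly tied to ERK signalling, had the widest difference of the 10 between genotypes. It was at 89.1, 85.7, 109, 95.0, 395 and 334 CPM in Bad_WT 1 to 6. In Bad3SA 1 to 6 it was at 78.4, 82.9, 91.0, 73.0, 56.0 and 73.3 CPM. The groups met only at the edge, where Bad3SA 3 exceeded Bad_WT 1 and 2, and no Bad3SA tumour reached the other wild-type ones. Means were 185 ± 141 CPM and 75.8 ± 11.8 CPM (SD, n = 6 each), and the log2 fold change was -1.29 (SE 0.39, unadjusted p = 0.00597, edgeR adjusted p = 0.147). It was -0.32 without Bad_WT 5 and 6, so that the sign held while most of the size rested on those tumours. Over the 21 alternative fits the adjusted p ran from 0.0278 to 0.845 and passed in 1, the DESeq2 Wald test.

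Egr2 and Egr3, which encode close relatives of EGR1 and are induced after it by many stimuli, had log2 fold changes of -1.07 (SE 0.60, edgeR adjusted p = 0.386) and -0.71 (SE 0.60, edgeR adjusted p = 0.554). Egr2 (ENSMUSG00000037868, chromosome 10, 67535475 to 67542188) ranged from 3.31 to 8.80 CPM in Bad_WT 1 to 4, reached 34.7 and 38.6 CPM in Bad_WT 5 and 6, and ranged from 3.92 to 12.6 CPM in Bad3SA. Egr3 (ENSMUSG00000033730, chromosome 14, 70077203 to 70082614) ranged from 2.71 to 12.8 CPM in Bad_WT 1 to 4, reached 21.3 and 30.8 CPM in Bad_WT 5 and 6, and ranged from 2.13 to 12.9 CPM in Bad3SA. For both genes Bad3SA 1, 2 and 3 were the upper 3 of their group, and the Bad3SA tumours lay below Bad_WT 5 and 6 and overlapped the range of the other wild-type tumours. Without Bad_WT 5 and 6 the fold changes were 0.40 for Egr2 and 0.29 for Egr3, the opposite sign.

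Nr4a1 (ENSMUSG00000023034, chromosome 15, 101254269 to 101274795), which encodes the orphan receptor NUR77, a factor that can act in the nucleus or bind BCL2 at mitochondria, was the only gene of the 10 whose groups did not overlap. Its levels were 72.3, 51.9, 43.9, 48.9, 75.9 and 64.3 CPM in Bad_WT 1 to 6. In Bad3SA 1 to 6 they were 41.4, 35.6, 39.4, 43.4, 38.6 and 25.2 CPM. The highest Bad3SA tumour thus lay just under the lowest wild-type one, and 1.27% of all genes were lower in every Bad3SA tumour in this way. Means were 59.5 ± 13.2 CPM and 37.3 ± 6.46 CPM (SD, n = 6 each), and the log2 fold change was -0.68 (SE 0.16, unadjusted p = 0.00113, edgeR adjusted p = 0.0659), which narrowly missed the threshold. It was highest in Bad_WT 5 and Bad_WT 1, so that its level, like those of Junb and Jund, did not single out Bad_WT 5 and 6. Without these tumours the fold change was -0.54 (SE 0.17, edgeR adjusted p = 0.191). It ran from -0.51 to -0.77 over the 21 alternative fits and passed in 4 of them, with adjusted p from 0.00715 to 0.527.

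Atf3 (ENSMUSG00000026628, chromosome 1, 191170296 to 191218039) was at 39.2, 20.0, 28.8, 28.8, 62.6 and 58.7 CPM in Bad_WT 1 to 6. In Bad3SA it ranged from 20.8 CPM in Bad3SA 6 to 50.4 CPM in Bad3SA 1, with a median of 26.7. The groups overlapped over the whole Bad3SA range, and the fold change was -0.40 (SE 0.29, edgeR adjusted p = 0.501), or 0.04 without Bad_WT 5 and 6.

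**Figure D2:**
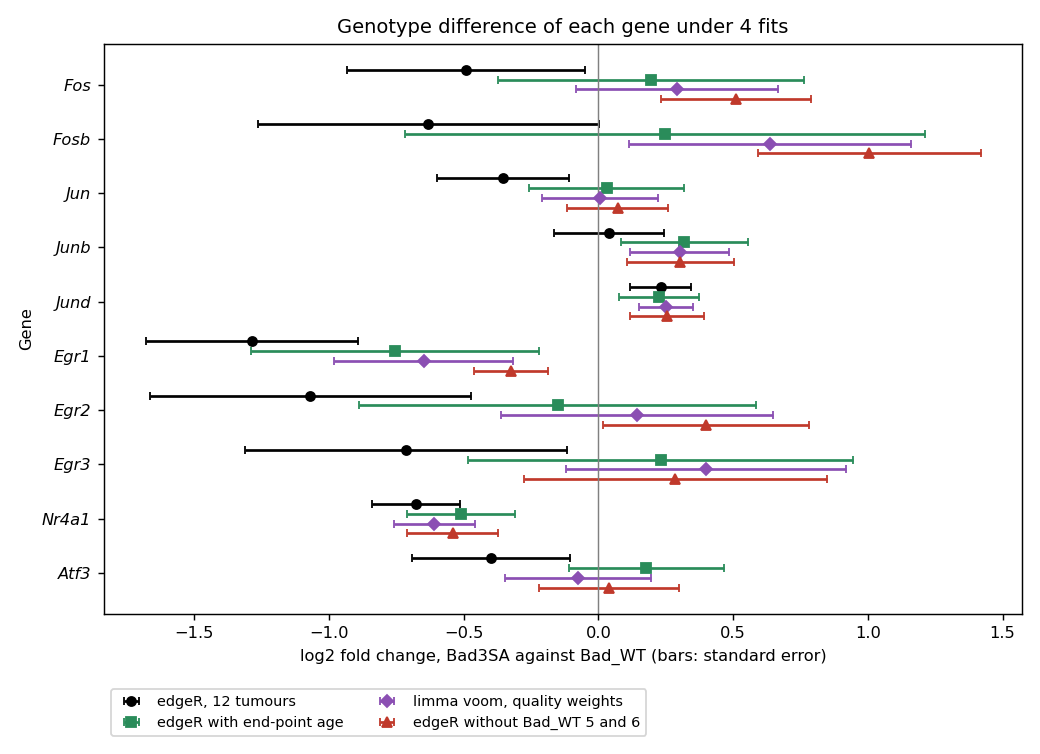
Log2 fold change of each gene, Bad3SA against Bad_WT, with standard errors as bars, from edgeR with all 12 tumours, edgeR without Bad_WT 5 and 6, edgeR with end-point age as a covariate, and limma voom with quality weights. Egr1 and Nr4a1 lie below 0 in all 4 fits and Jund above 0, while Fos, Fosb, Jun and Egr3 lie below 0 in the first and above 0 in each of the others.

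In all, 8 of the 10 fold changes were below 0, with a median of -0.56, where 49.6% of all genes were below 0 and their median was 0.003263. Without Bad_WT 5 and 6 the count turned to 2 below and 8 above 0, and the median was 0.27. The authors' deposited table, with its sign turned to the direction used here, gave -0.65 (SE 0.18, adjusted p = 0.0110) for Nr4a1 and -1.05 (SE 0.32, adjusted p = 0.0353) for Egr1. Its adjusted p for the other 8 genes ran from 0.325 to 0.951. The call of these 2 genes therefore depended on the test, and their direction did not.

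The spread among mice of 1 genotype differed widely between the 10 genes. The within-genotype SD of log2 CPM, pooled over both genotypes, was 1.23 for Egr3, 1.20 for Fosb, 1.16 for Egr2, 0.85 for Fos and 0.74 for Egr1. It was 0.30 for Nr4a1 and 0.19 for Jund, below the median of 0.37 over all genes tested. Against genes of like abundance (within 0.5 in mean log2 CPM), Fos was at the 98.2 percentile of spread, Egr1 at 97.8, Egr3 at 96.1, Egr2 at 94.9, Fosb at 92.9, Atf3 at 92.4 and Jun at 90.8. Nr4a1 was at the 66.8 percentile and Jund at 25.3. Within Bad3SA alone, Egr1 had an SD of 0.24 and Egr3 of 1.10, against 1.01 and 1.36 in wild-type tumours. These wild-type SDs, the pooled SDs and the percentiles all include Bad_WT 5 and 6, where Egr1 was at 395 and 334 CPM. In Bad_WT 1 to 4, Egr1 ranged only from 85.7 to 109 CPM and Egr3 from 2.71 to 12.8 CPM. No SD was computed without Bad_WT 5 and 6, so a genotype difference in spread cannot be read from these values.

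**Figure D3:**
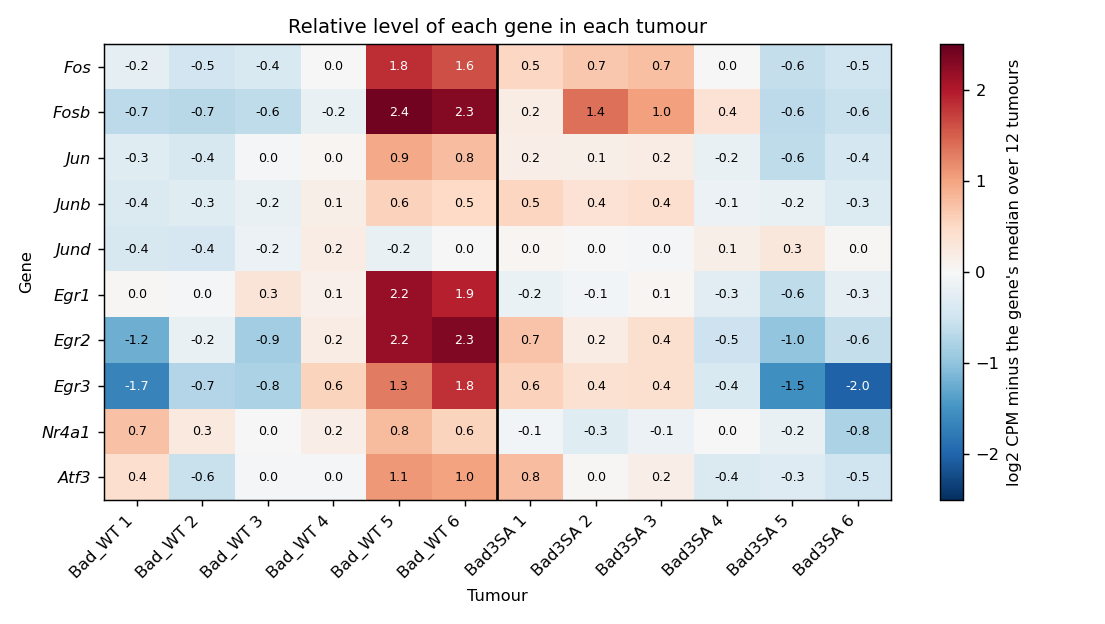
Log2 CPM of each gene in each tumour, less the gene's median over the 12 tumours, with genes in rows, tumours in columns and the genotypes divided by a line. Bad_WT 5 and 6 are the 2 highest tumours for 7 genes and not for Junb, Jund and Nr4a1. Bad3SA 1 to 3 are above Bad3SA 5 and 6 for every gene but Jund and Nr4a1.

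Because Bad_WT 5 and 6 formed a separate cluster, the relation between genes was taken over the other 10 tumours and over the 6 Bad3SA tumours. All 45 pairs of the 10 genes were tested by permutation on log2 CPM, with Benjamini-Hochberg adjustment over the 45 within each set of tumours. Over the 10 tumours, 38 pairs had a positive Pearson r and 11 passed, 8 by Spearman's rho. Fos and Jun had r = 0.88 (permutation p = 0.00114, adjusted p = 0.0120) and rho = 0.93 (permutation p = 0.00032, adjusted p = 0.0144), with r = 0.83 after the 2 tumours farthest from the median Fos level were left out. Egr2 and Egr3 had r = 0.87 (permutation p = 0.00187, adjusted p = 0.0120) and rho = 0.88 (permutation p = 0.0017, adjusted p = 0.0255). Their r was 0.83 after the 2 tumours farthest from the median Egr2 level were left out. Junb tracked Egr3 as closely, at r = 0.88 (permutation p = 0.00157, adjusted p = 0.0120) and rho = 0.90 (permutation p = 0.00073, adjusted p = 0.0164). Here r was 0.85 after the 2 tumours farthest from the median Junb level were left out. No pair with Nr4a1, Egr1, Jund or Atf3 passed over the 10 tumours.

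Within Bad3SA, where genotype cannot contribute, all 36 pairs that did not involve Jund had a positive r. Only 4 of 45 passed by r and none by rho, for which the smallest adjusted p was 0.0833. With 6 tumours the exact permutation p for rho cannot fall below 0.00278, so 1 pair alone could not pass after adjustment over 45. Fos and Jun reached r = 0.99 (exact permutation p = 0.00278, adjusted p = 0.0417) and rho = 0.94 (exact permutation p = 0.0167, adjusted p = 0.0833), with r = 0.97 after 2 tumours were left out. Fos and Egr1 had r = 0.86 within Bad3SA (exact permutation p = 0.00278, adjusted p = 0.0417) and rho = 0.94 (exact permutation p = 0.0167, adjusted p = 0.0833), with r = 0.90 after 2 tumours were left out. Over the 10 tumours the same pair had r = 0.23 (permutation p = 0.537, adjusted p = 0.691) and rho = 0.27 (permutation p = 0.448, adjusted p = 0.65). Jund and Egr1 moved in opposite directions within Bad3SA, with r = -0.95 (exact permutation p = 0.00417, adjusted p = 0.0469) and rho = -0.94 (exact permutation p = 0.0167, adjusted p = 0.0833), and r = -0.90 after 2 tumours were left out. The same pair had r = -0.52 over the 10 tumours (permutation p = 0.121, adjusted p = 0.259; rho = -0.52, permutation p = 0.134) and r = 0.26 within Bad_WT (exact permutation p = 0.61, adjusted p = 0.638; rho = 0.49, exact permutation p = 0.356). The difference between genotypes was not tested.

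**Figure D4:**
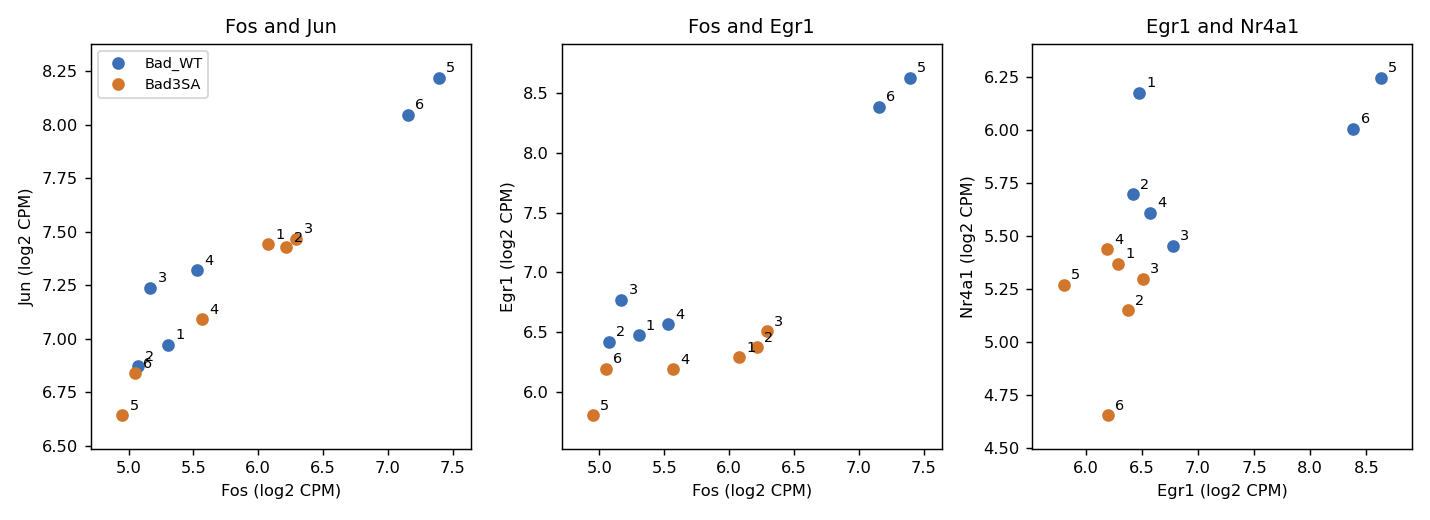
Log2 CPM of pairs of the genes in each tumour, for Fos and Jun, Fos and Egr1, and Egr1 and Nr4a1, with colours for genotype and the tumour number beside each point. Fos and Jun rise together in both genotypes, Egr1 in the Bad3SA tumours rises with Fos at lower levels than in most wild-type tumours, and Bad_WT 5 and 6 stand at the upper end of Fos, Jun and Egr1.

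Age at the end point moved with genotype, since Bad3SA mice were older on average, at 27.5 ± 2.85 weeks against 24.1 ± 1.94 weeks (SD, n = 6 each). None of the 10 genes passed in a correlation of log2 CPM with age over the 12 tumours after adjustment over the 10. Atf3 came closest, with r = -0.73 (permutation p = 0.00757, adjusted p = 0.0757) and rho = -0.65 (permutation p = 0.0258, adjusted p = 0.129), and r = -0.66 without the youngest and the oldest mouse. Nr4a1 had r = -0.67 (permutation p = 0.0165, adjusted p = 0.0826) and rho = -0.68 (permutation p = 0.0172, adjusted p = 0.129), and r = -0.67 after the same step. Within a genotype, r for Nr4a1 was -0.43 in Bad_WT and -0.41 in Bad3SA, and for Atf3 it was -0.79 and -0.73. None of these passed (exact permutation adjusted p from 0.423 to 0.534, n = 6). Leaving out Bad_WT 1 let Jun, Egr3 and Atf3 pass, and leaving out Bad_WT 5 let Egr1 and Atf3 pass.

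No gene of the other pathway lists passed the genotype test either. Among 11 relatives (other FOS, BATF, NR4A and NAB genes), 10 were tested, 8 were below 0 and the median fold change was -0.05. Nr4a2 and Nr4a3, the other members of the NR4A receptor family, were at -0.42 (SE 0.17, edgeR adjusted p = 0.247) and -0.52 (SE 0.29, edgeR adjusted p = 0.380), and Batf was at 0.53. Among 20 upstream genes (SRF, its cofactors, CREB and the kinases), 14 were below 0, with a median of -0.09. Rps6ka3, which encodes the ERK-activated kinase RSK2, fell short of the threshold at -0.42 (SE 0.13, edgeR adjusted p = 0.149). Crtc3, a CREB coactivator, had groups that did not overlap (1.27% of all genes in this direction), with a mean of 41.3 ± 3.47 CPM against 32.1 ± 5.71 CPM (SD, n = 6 each; edgeR adjusted p = 0.186). Srf itself was at 114 and 149 CPM in Bad_WT 5 and 6 and at most 79.1 CPM in the other tumours.

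Of 25 other immediate-early genes, 18 had a fold change below 0, with a median of -0.24, and 14 had their 2 highest levels in Bad_WT 5 and 6. Their summed level was 4133 and 4739 CPM in those tumours and 1752 to 2379 CPM in the rest. Arc, better known from synapses, was at 143 and 142 CPM there and at most 15.7 CPM elsewhere, and its fold change was -2.12 (SE 0.76, edgeR adjusted p = 0.206). Trib1, a pseudokinase gene, averaged 248 ± 56.7 CPM for Bad_WT against 173 ± 18.4 CPM (SD, n = 6 each), a fold change of -0.52 (edgeR adjusted p = 0.108), and Nfkbiz was at 0.63. The ERK feedback inhibitors had 7 of 10 below 0, a median of -0.32 and 4 genes (Dusp5, Dusp6, Spry1 and Spry2) with their 2 highest levels in Bad_WT 5 and 6. Of these inhibitors Spred2, Spry4 and Spry2 had the smallest p, at -0.28, -0.61 and -0.36 (edgeR adjusted p from 0.216 to 0.250).

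The heat-shock genes moved with the same tumours. Of 15 heat-shock genes, 10 had their 2 highest levels in Bad_WT 5 and 6, and the summed level was 9229 and 10195 CPM there against 6004 to 8805 CPM in the rest. Hspa1a, the inducible HSP70 gene, was at 127 and 90.9 CPM in those tumours and at most 13.4 CPM in the others. Hspa1a and its near-identical copy Hspa1b share reads, so their split is uncertain, and Hspa1b was at 492 and 354 CPM against at most 158 CPM. The list's median was -0.26, with 12 of 15 below 0, and its smallest p belonged to Hspa1a, Dnajb4 and Hspa1b, at -2.40, -0.35 and -1.10. The integrated stress response list, which shares the stimulus range of Atf3, behaved differently: 10 of 14 were above 0, the median was 0.17, and 1 gene (Trib3) had its 2 highest levels in Bad_WT 5 and 6. Nupr1, a stress-induced chromatin cofactor gene, was higher in every Bad3SA tumour than in any Bad_WT tumour, as were 0.96% of all genes. Its mean was 167 ± 19.9 CPM in Bad3SA against 111 ± 23.6 CPM in Bad_WT (SD, n = 6 each, edgeR adjusted p = 0.0690). Psat1 and Asns had fold changes of 0.43 and -0.36.

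**Figure D5:**
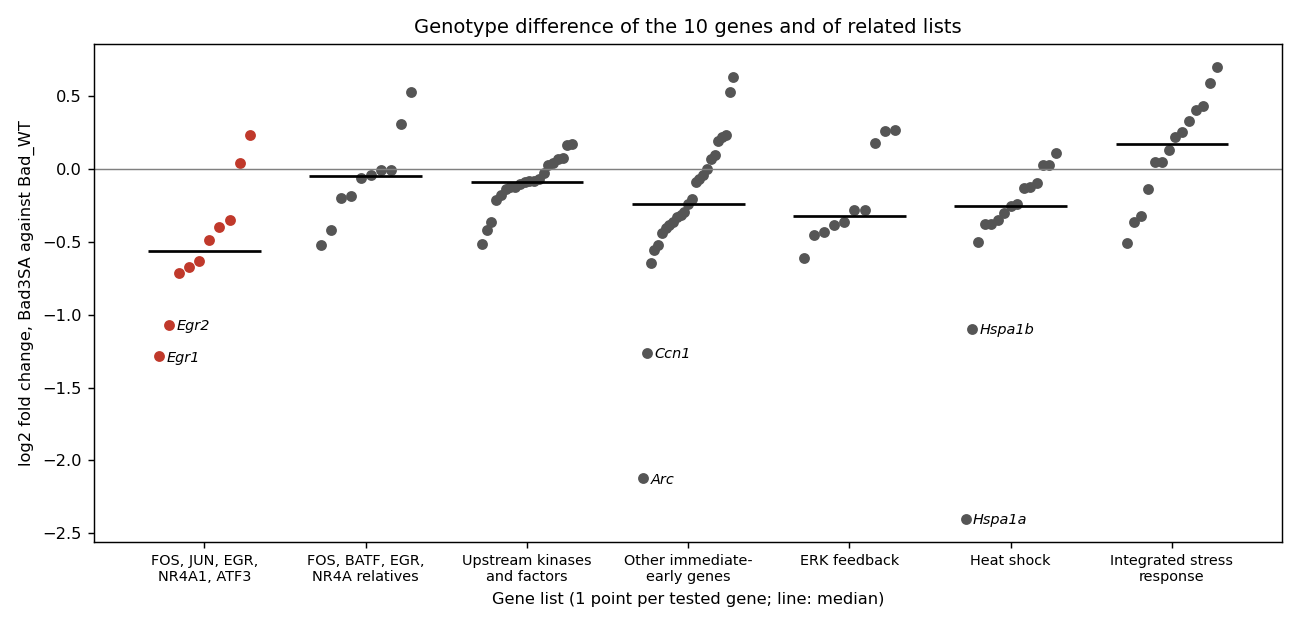
Log2 fold change of each tested gene, Bad3SA against Bad_WT, for the 10 genes and 6 related lists, 1 point per gene with a line at each median. The 10 genes have the lowest median, at -0.56, and the integrated stress response list is the only one of the 7 with a median above 0, at 0.17.

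Cell-type markers were checked beside this pattern. Luminal epithelial markers, the cells that the transgene transforms, were present in every tumour, with a summed level of 4776 to 6006 CPM in Bad_WT and 4267 to 6227 CPM in Bad3SA. Of 12 marker lists, only the basal epithelial one had a gene (1 of 6, Krt17) with its 2 highest levels in Bad_WT 5 and 6. Over all genes tested, this share was 10.7%. In the same basal list, Krt5 at 4.57 CPM and Myh11 at 7.22 CPM were lower in Bad_WT 6 than in any other tumour. Krt14, Trp63 and Acta2 in Bad_WT 6 lay inside the range of the other tumours. Bad_WT 6 had the lowest sums of T cell markers (3.27 CPM, against 8.79 to 20.6 CPM in tumours other than Bad_WT 5 and 6), fibroblast markers (281 CPM against 350 to 3002 CPM) and macrophage markers (241 CPM against 288 to 723 CPM), and also of B cell and adipocyte markers. For T cells, fibroblasts and macrophages Bad_WT 5 lay inside the range of the other tumours, at 9.10, 725 and 314 CPM. No marker gene passed the genotype test. Fold changes were above 0 for all 5 erythroid markers, each with an unadjusted p under 0.05 (median 1.20), and their sum was 25.9 to 115 CPM in Bad_WT and 67.2 to 228 CPM in Bad3SA. They were also above 0 for all 5 adipocyte markers (median 1.76), of which 0 had an unadjusted p under 0.05. Bad3SA 5 held the highest level of each adipocyte marker. There Fabp4 reached 111 CPM, and the next highest level was 30.2 CPM in Bad_WT 4. Fold changes were above 0 for all 6 T cell markers too (median 0.61), at low levels of at most 6.01 CPM in any tumour. Of the T cell markers, 2 had an unadjusted p under 0.05. Fold changes of all 6 skeletal muscle markers were below 0 (median -2.22), but Bad_WT 4 held the highest level of each. There Acta1 reached 446.5 CPM and Tnnt3 216.5 CPM, while no Bad3SA tumour exceeded 67.1 and 21.6 CPM. By group median only Acta1 was lower in Bad3SA, whereas Ckm, Myh4, Tnnt3, Myl1 and Tnni2 were higher. The part of heat-shock genes and of cell make-up in the levels of the 10 genes was not tested.

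Genes outside the list whose log2 CPM tracked these factors most closely over the 12 tumours, among 10299 genes ranked, are given as a description, since Bad_WT 5 and 6 weigh on every such r. For Fos they were Ppp1r12a (r = 0.96), Pdlim5 (0.95), Klf6 (0.94), Plod1 (0.94) and Slc12a7 (0.93), with r from 0.82 to 0.88 without those tumours. Jun was tracked by Actn1 (r = 0.97), which encodes an actin crosslinker, Kif3c (0.95), Sorcs2 (0.95) and Pdlim5 (0.94), and without the 2 tumours these 4 were 0.86 to 0.94. The genes nearest to Egr1 were Ptprk (r = 0.96), Fntb (0.95), Hspa1a (0.95), P3h2 (0.95) and Ccn1 (0.95), and here r dropped further, to 0.46 for Ccn1 and to at most 0.84. Nr4a1 had a different set, Inka2 (r = 0.90), Epha2 (0.88), Baz2b (0.88), Prune1 (0.86) and Mkln1 (0.85), which held 0.77 to 0.88 without the 2 tumours. Inka2 and the ephrin receptor gene Epha2 passed the genotype test themselves, at -0.76 (edgeR adjusted p = 0.0372) and -0.78 (edgeR adjusted p = 0.0480), as did 1.38% of all genes. Both were picked by r with Nr4a1, whose groups did not overlap, so a difference between genotypes was partly built into the choice.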

How the data were processed

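For each tumour the authors deposited unnormalised whole-number counts by Ensembl gene. Among the tools, the submitters' processing notes list STAR 2.7.9a, fastp 0.23.1 and DESeq2, with the build GRCm38. How reads were counted, and with which annotation and strand setting, is not stated. Per the file headers, the authors' comparison table holds p-values (raw and adjusted), a Wald score, a log2 fold change with a standard error, and a mean signal of normalised counts. Its log2 fold changes ran opposite to those fitted here (Spearman rho -0.997 across 18019 genes), so their sign was turned.

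Total counts ran from 58096172 to 83296370 per tumour. Genes were filtered with filterByExpr (18019 kept), scaled by TMM and tested with the robust quasi-likelihood test of edgeR 4.0.16 in R 4.3.3, with Benjamini-Hochberg adjustment over all genes and a threshold of 0.05. SEs were derived from the fold change and its F statistic, as |log2 fold change|/√F. CPM values are TMM-normalised, and log2 CPM used a prior count of 2. Correlations used exact permutation for 6 tumours and 100000 resamples otherwise. Exon lengths and gene positions come from GENCODE vM21 on GRCm38 and promoters from RefSeq on GRCm38.p6.

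The 10 genes, the lists and the alternatives were chosen with earlier results of these data known. The text names all 10 genes, the 3 genes with the smallest p in each other list and the 5 nearest genes of Fos, Jun, Egr1 and Nr4a1. A gene that this rule names for Jun is not reported here. Dusp5, Dusp6, Spry1, Trib3 and Krt17, named for their level in Bad_WT 5 and 6, were chosen after their values were seen. So were Krt5 and Myh11, named for their level in Bad_WT 6. No batch was given in the labels. Alternatives were DESeq2 1.42.0 (its size factors, and its Wald test), limma 3.58.1 voom with quality weights, other filters, a non-robust dispersion, each tumour left out in turn, a replicate block from the title numbers, and a model with age. Leaving out Bad_WT 5 and 6 together was added after seeing the data.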

Additional observations from a re-analysis of the deposited data

How the results depend on the processing

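Among 21 alternatives, Egr1 and Nr4a1 stayed below 0 and Jund above 0 in all. The number of genes called became 863 with DESeq2, 579 with limma voom, 163 with at least 1 CPM in 6 tumours, 73 with age as a covariate, and 147 (without Bad_WT 5) to 315 (without Bad_WT 4) with 1 tumour left out. Of the 10 genes, DESeq2 called 2, voom 1 and the fit with no filter 1. With 1 tumour left out, 0 or 1 was called, Nr4a1 without Bad_WT 3. The median fold change of the 10 genes was 0.20 with voom, 0.19 with age, 0.27 without Bad_WT 5 and 6, and -0.70 to -0.20 with 1 tumour left out. The cause was not tested.

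Signs turned for several genes. With voom, Fos was 0.29, Fosb 0.64, Jun 0.0062, Egr2 0.14 and Egr3 0.40. With age, Fos was 0.20, Fosb 0.25, Jun 0.031, Egr3 0.23 and Atf3 0.18. Without Bad_WT 5 and 6, Fos was 0.51, Fosb 1.01, Jun 0.071, Egr2 0.40, Egr3 0.29 and Atf3 0.040. Junb, at 0.04, ran from -0.065 to 0.15 with 1 tumour left out and was 0.30 with voom, 0.32 with age and 0.30 without Bad_WT 5 and 6. The pairs of genes correlated numbered 29 over all tumours, 11 without Bad_WT 5 and 6, and 22 to 33 with 1 tumour left out. The genes correlated with age numbered 0 to 3 with 1 tumour left out.

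The values gave little sign that the title numbers pair the tumours, and the labels do not say whether they do. Same-numbered tumours correlated at -0.27 to 0.28 in their deviations, and only number 6 correlated best with its own number. With the number as a replicate block, 105 genes were called, none of the 10 among them, and Fosb was 0.0318. The lowest count of any of the 10 genes in a tumour was 107 reads, for Fosb in Bad3SA 5.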
